A study of Mus musculus with 12 samples.

Results

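In all, 10 genes of the hepatic acute phase response were followed across the 12 livers of the series: *Saa1*, *Saa2*, *Saa3*, *Saa4*, *Orm1*, *Orm2*, *Hp*, *Hpx*, *Lcn2* and *Socs3*. They were chosen by name from the 54232 genes of the count table, as genes that inflammation induces in liver, and all 10 were among the 17509 genes with enough reads to be tested. The livers came from 10-week-old male C57Bl/6J mice on standard chow that were fasted for 4 h before sacrifice. Of these, 6 were WT (*Marchf6* fl/fl, AlbuminCre-) and 6 were LKO (*Marchf6* fl/fl, AlbuminCre+), so both groups carry the floxed *Marchf6* alleles and only the LKO mice carry the Cre transgene. Cre is driven by the albumin promoter, which is active in hepatocytes, so the other cells of an LKO liver should keep an intact *Marchf6*, the gene of a ubiquitin ligase in the endoplasmic reticulum membrane. Each library was made from the whole liver tissue of 1 mouse.

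The acute phase response is the change in hepatic secretion that follows infection or tissue injury. Macrophage cytokines start it: interleukin 6 acts on hepatocytes through the receptor chains *Il6ra* and *Il6st* and the transcription factor STAT3, while interleukin 1 and TNF act through NF-kB, and factors of the C/EBP family act with both. The induced proteins include the serum amyloid A proteins of HDL (*Saa1*, *Saa2*), the plasma carrier orosomucoid (*Orm1*, *Orm2*), haptoglobin (*Hp*), which binds free hemoglobin, hemopexin (*Hpx*), which binds heme, and lipocalin 2 (*Lcn2*), which withholds iron by binding bacterial siderophores. *Socs3* encodes a feedback inhibitor of the interleukin 6 receptor, *Saa3* is made mainly by macrophages and fat, and *Saa4* is a largely constitutive member of the amyloid A family.

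Libraries held 14860414 to 22111926 counts. Hepatocyte markers (*Alb*, *Apoa1*, *Apob*, *Cps1*, *Ttr* and *Tat*) summed to 89117 to 118914 normalized CPM (counts scaled to library size with TMM factors) and exocrine pancreas markers to at most 0.0577, so the tissue had the markers of liver. *Marchf6* itself stood at 226 to 247 CPM in WT and 204 to 249 CPM in LKO livers (log2 fold change of LKO against WT -0.09 ± 0.06, SE, n = 6 and 6, edgeR quasi-likelihood adjusted p = 0.585). The values of both groups overlapped, and a count over the whole gene cannot resolve the deletion of 1 exon, so it could not check the genotype labels.

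The 4 *Saa* genes lie side by side on chromosome 7 (GRCm38, GENCODE M21): *Saa3* at chr7:46711998-46715700, *Saa4* at chr7:46727998-46732603 and *Saa1* at chr7:46740497-46742980 on the minus strand, and *Saa2* at chr7:46751790-46754313 on the plus strand. *Orm1* (chr4:63344560-63348163) and *Orm2* (chr4:63362449-63365878) lie on the plus strand of chromosome 4. *Hp* (chr8:109575128-109579172), *Hpx* (chr7:105591613-105600137), *Lcn2* (chr2:32384633-32388252) and *Socs3* (chr11:117966079-117970047) are all on the minus strand. No annotated gene overlapped any of the 10. The *Saa1* and *Saa2* transcripts were identical in 572 of 609 aligned positions, and 13.2% of the 50-base windows of *Saa1* were also found in *Saa2*. For *Orm1* and *Orm2* these values were 705 of 775 positions and 20.4% of windows. Reads from such stretches could not be assigned to 1 gene, so the values of the single genes are uncertain and each family was also tested as a sum.

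The promoters of 5 members are shown for what their RNAs did across livers: *Saa1*, *Saa2* and *Lcn2* varied most and together, whereas *Saa4* and *Socs3* did not follow them closely. Each sequence is the 250 bases before the RefSeq transcription start on GRCm38.p6, written along the gene, and capitals mark matches to a C/EBP motif (TTGCNNAA), a STAT motif (TTCNNNGAA) or an NF-kB motif (GG and TTTCC with 3 free bases between them) on either strand. They are chr7:46742981-46743230 (minus strand), chr7:46751583-46751832 (plus), chr2:32387740-32387989 (minus), chr7:46732604-46732853 (minus) and chr11:117969367-117969616 (minus).
Saa1: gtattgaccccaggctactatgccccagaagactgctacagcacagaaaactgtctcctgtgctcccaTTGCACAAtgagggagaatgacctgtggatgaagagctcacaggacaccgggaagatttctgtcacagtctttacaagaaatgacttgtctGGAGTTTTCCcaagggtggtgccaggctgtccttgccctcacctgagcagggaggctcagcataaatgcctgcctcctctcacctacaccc
Saa2: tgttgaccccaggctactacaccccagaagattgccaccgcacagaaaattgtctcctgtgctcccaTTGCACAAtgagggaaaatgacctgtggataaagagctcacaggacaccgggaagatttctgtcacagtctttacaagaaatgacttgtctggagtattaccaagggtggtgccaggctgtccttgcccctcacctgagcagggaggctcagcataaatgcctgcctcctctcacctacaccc
Lcn2: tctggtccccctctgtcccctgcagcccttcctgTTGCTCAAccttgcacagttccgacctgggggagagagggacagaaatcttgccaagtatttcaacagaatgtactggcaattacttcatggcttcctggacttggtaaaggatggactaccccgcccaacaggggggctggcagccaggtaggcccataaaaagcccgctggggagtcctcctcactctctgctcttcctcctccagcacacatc
Saa4: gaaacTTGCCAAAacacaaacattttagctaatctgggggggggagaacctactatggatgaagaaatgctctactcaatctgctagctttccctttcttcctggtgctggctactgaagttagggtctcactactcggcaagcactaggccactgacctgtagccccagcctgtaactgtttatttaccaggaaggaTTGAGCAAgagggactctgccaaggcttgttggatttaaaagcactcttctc
Socs3: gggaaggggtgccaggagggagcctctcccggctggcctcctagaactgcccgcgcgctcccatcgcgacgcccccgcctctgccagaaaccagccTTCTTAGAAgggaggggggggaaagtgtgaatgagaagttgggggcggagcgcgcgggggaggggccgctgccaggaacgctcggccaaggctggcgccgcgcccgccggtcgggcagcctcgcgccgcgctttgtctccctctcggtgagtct

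The *Saa1* and *Saa2* promoters were identical in 238 of 251 aligned positions, with 11 mismatches and 2 gap positions, although the genes point away from each other. Both hold the C/EBP match TTGCACAA, which begins 182 bases before the *Saa1* start and 183 bases before the *Saa2* start. The NF-kB match GGAGTTTTCC, from 91 to 82 bases before the start, was found in *Saa1*, and no such letters were found in *Saa2*. *Lcn2* has 1 C/EBP match, *Saa4* has 2 and *Socs3* has none, but *Socs3* holds the STAT match TTCTTAGAA, from 154 to 146 bases before its start. RefSeq promoters were at hand for 8 of the 10 members, all but *Orm1* and *Hp*. C/EBP letters occurred in 7 of these 8, STAT letters in 1 and NF-kB letters in 1. Among all 32851 promoter windows of this length, 9.56% held the C/EBP, 7.02% the STAT and 4.63% the NF-kB letters. The letters were chosen with the members' promoters in view, so these shares do not test enrichment among the members. The 3 motifs did not overlap each other in the windows shown, and a match of letters is a description of the sequence, not evidence of binding.

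Per kilobase of transcript, the secreted plasma proteins *Hpx* and *Hp* had the highest levels and *Socs3* the lowest. The median over 12 livers was 2106 CPM per kb for *Hpx* and 1825 for *Hp*, whose ranges overlapped. *Orm1* followed at 608, above every *Saa4* value and below every *Hp* value. *Saa4* (195), *Saa1* (115) and *Saa2* (46.3) each overlapped with the next in order. *Lcn2* (6.94), *Saa3* (5.22), *Orm2* (4.81) and *Socs3* (4.57 CPM per kb) formed the lowest stretch, in which each gene again overlapped with its neighbour. The order of *Saa4* and *Saa1* was not the same in both genotypes: the WT medians were 232 for *Saa4* and 115 for *Saa1*, and the LKO medians 159 for *Saa4* and 203 CPM per kb for *Saa1*.

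No member passed the test between the genotypes. With the quasi-likelihood test of edgeR and Benjamini-Hochberg adjustment over 17509 genes, 0 of 10 members had an adjusted p under 0.05, where 0.428% of all tested genes did (75 genes, 0.274% higher and 0.154% lower in LKO livers). *Saa4* had the lowest adjusted p of the 10, at 0.698. At an unadjusted p under 0.05 the count was also 0 of 10, against 11.7% of all genes (6.33% higher and 5.36% lower), and limma voom and DESeq2 called 0 members as well. The values of WT and LKO livers overlapped for every member, whereas 1.3% of all genes had groups that did not overlap. The members' median log2 fold change was -0.04, beside 0.0002 over all tested genes, with 4 members higher and 6 lower in LKO livers. In bulk tissue, fewer cells of a type and less RNA per cell cannot be told apart.

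**Figure D1:**
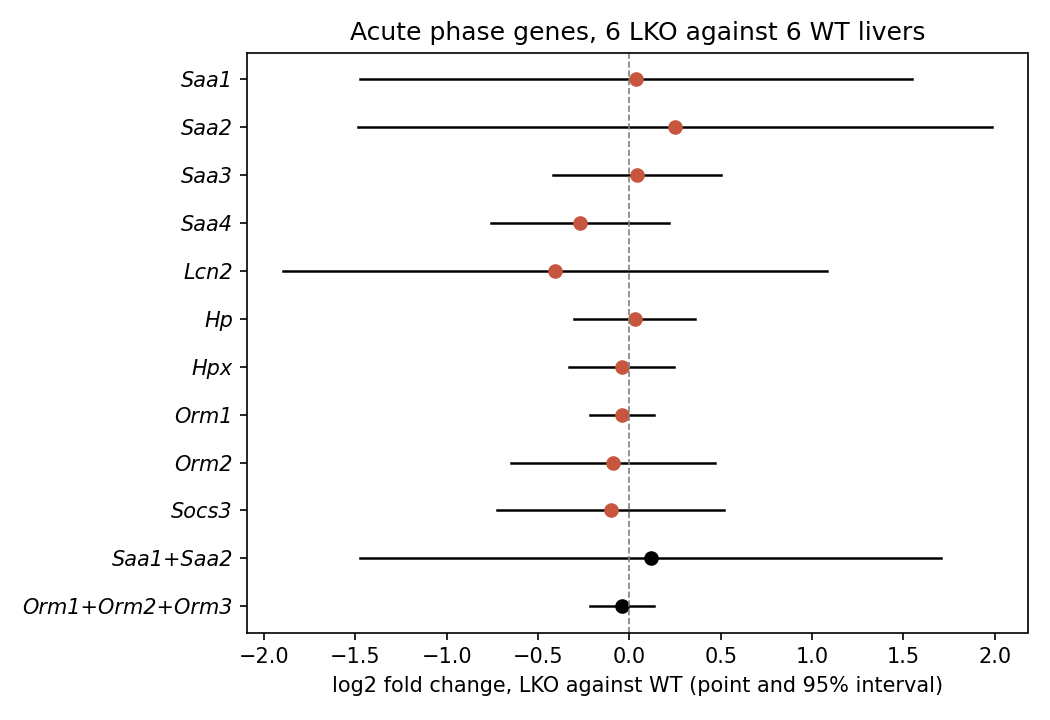
The log2 fold change of LKO against WT livers (x axis) is shown as a point with its 95% interval for the 10 members and, in black, for 2 summed families. Every interval includes 0, from the narrow one of *Orm1* (-0.22 to 0.14) to the wide ones of *Saa2* (-1.49 to 1.98) and *Lcn2* (-1.90 to 1.08).

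How tightly this comparison bounds a difference depended on the gene. *Saa1* had a log2 fold change of 0.04 with a 95% interval of -1.47 to 1.55 (adjusted p = 0.993, edgeR), and *Saa2* one of 0.25 (-1.49 to 1.98, adjusted p = 0.946, edgeR). Summed, *Saa1* and *Saa2* differed by 0.12 ± 0.74 (SE, edgeR adjusted p = 0.974, -1.47 to 1.71). Differences of over 2-fold in either direction lie inside these intervals, which come from the model with genotype alone. For *Hp* (0.03, -0.30 to 0.36), *Hpx* (-0.04, -0.33 to 0.25) and *Orm1* (-0.04, -0.22 to 0.14) the intervals were narrow. *Orm1*, *Orm2* and *Orm3* summed gave -0.04 ± 0.08 (edgeR adjusted p = 0.901).

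The livers themselves differed widely in the inducible genes. *Saa1* was at 101, 343, 29.4, 34.8, 39.2 and 193 CPM in WT replicates 1 to 6, and at 221, 237, 33.9, 22.4, 31.2 and 214 CPM in LKO replicates 1 to 6. *Saa2*, its divergent neighbour, was at 38.9, 235, 16.3, 15.1, 12.9 and 92.7 CPM in WT and at 152, 172, 21.4, 9.97, 13.6 and 121 CPM in LKO livers. In both genotypes replicates 1, 2 and 6 were high and replicates 3, 4 and 5 were low. Summed over the 2 genes, the 6 high livers held 139.6 to 578 CPM and the 6 low ones 32.4 to 55.3 CPM, a gap of 2.52-fold between the lowest of the one and the highest of the other. The highest liver exceeded the lowest by 15.3-fold for *Saa1* and 23.6-fold for *Saa2*. *Saa1* made up 58.0% to 75.3% of the sum of both in every liver. The pooled SD of log2 CPM within genotypes was 1.55 for *Saa1* and 1.79 for *Saa2*, larger than that of 99.8% and 99.9% of the 12775 genes with a mean of at least 1 CPM. The replicate numbers come from the library names, and the labels tie them to no litter, cage or day.

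**Figure D2:**
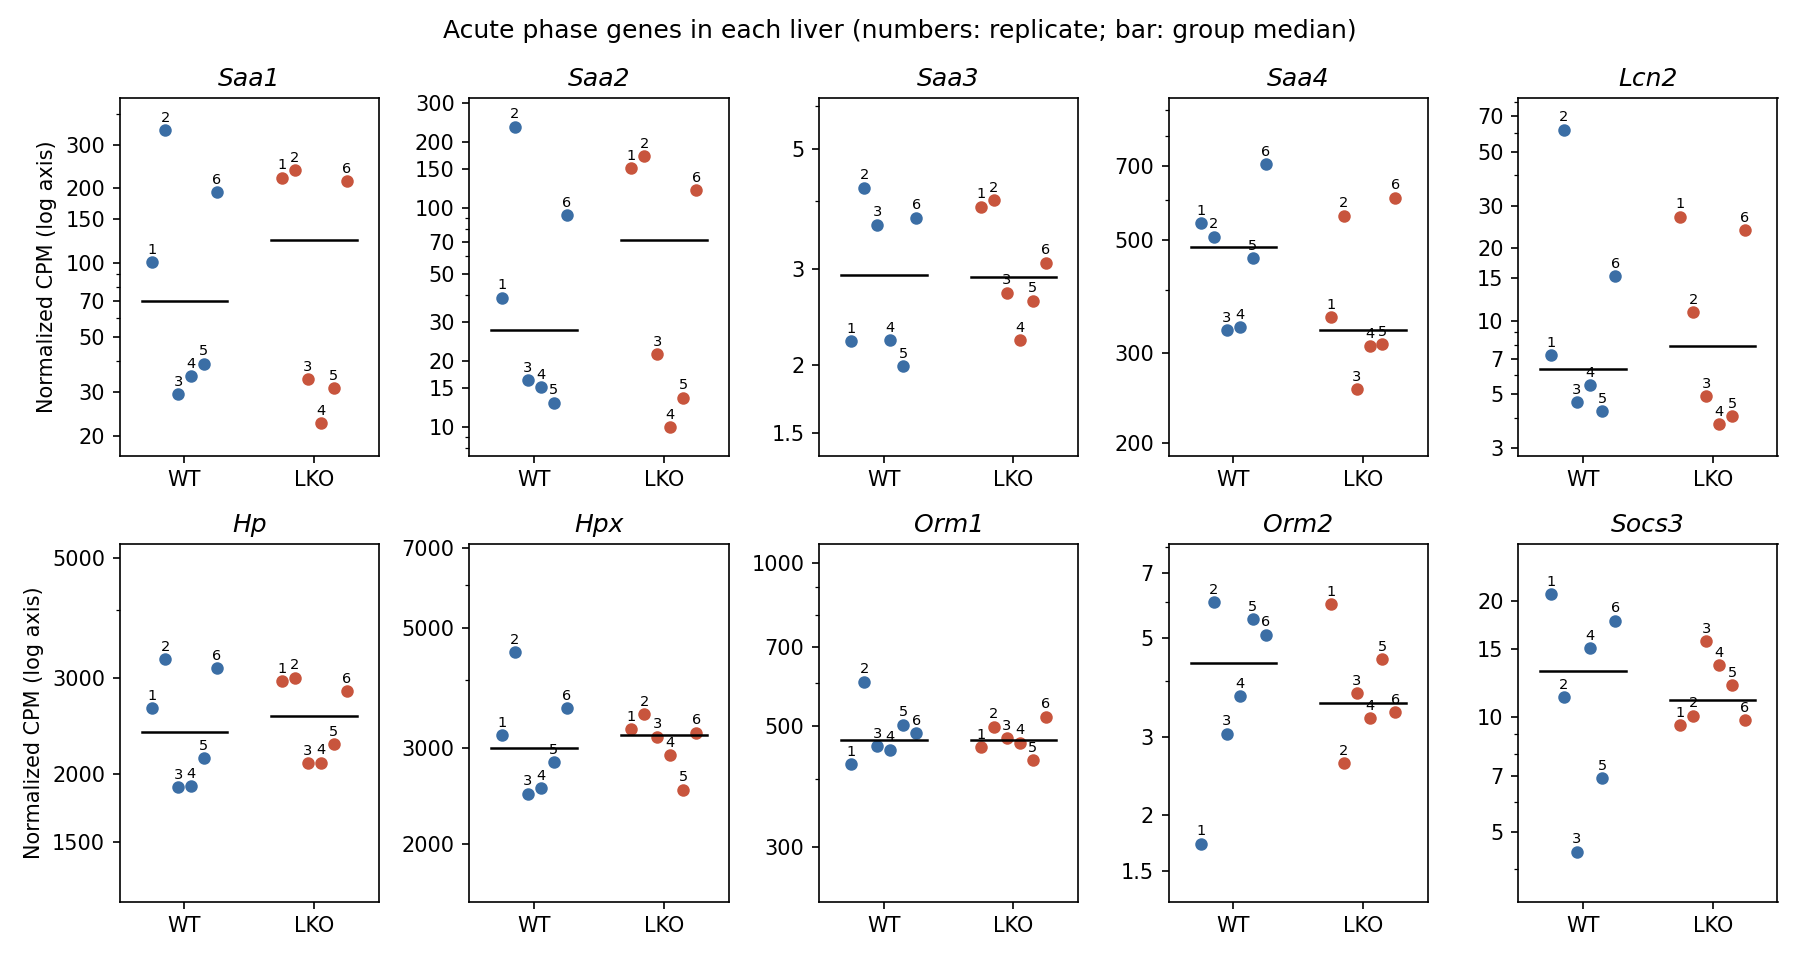
Normalized CPM on a log axis is plotted for each of the 10 members in 6 WT (blue) and 6 LKO (red) livers, with the replicate number at each point and a bar at the group median. Replicates 1, 2 and 6 are the upper points of *Saa1*, *Saa2*, *Lcn2* and *Hp* in both genotypes, and WT replicate 2 is the highest liver in 8 of the 10 panels.

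*Lcn2* had the most extreme single liver. It was at 7.25, 61.7, 4.64, 5.45, 4.24 and 15.3 CPM in WT replicates 1 to 6, and at 27.0, 10.9, 4.91, 3.76, 4.04 and 23.8 CPM in LKO replicates 1 to 6. WT replicate 2 was far above the next WT liver and above all LKO livers, and the ranges of the genotypes overlapped. The log2 fold change of *Lcn2* was -0.41 (-1.90 to 1.08, adjusted p = 0.873, edgeR). It turned to 0.75 without WT replicate 2 (edgeR adjusted p = 0.636), so the direction of this difference rested on 1 mouse.

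*Hp* and *Hpx* ordered the livers in the same way at far higher levels and with smaller steps. *Hp* was at 2644, 3254, 1888, 1895, 2139 and 3129 CPM in WT and at 2964, 3004, 2088, 2095, 2267 and 2835 CPM in LKO livers. The same 6 livers were again the upper ones, and the highest exceeded the lowest by 1.72-fold. *Hpx* was at 3167, 4500, 2470, 2531, 2827 and 3548 CPM in WT and at 3245, 3467, 3148, 2911, 2512 and 3200 CPM in LKO livers. Here too replicates 1, 2 and 6 of both genotypes were the upper 6, but LKO replicate 3 came close to them. Ranked by level, *Hp*, *Hpx* and *Lcn2* each had the same 6 highest livers as *Saa1* and *Saa2* summed, as did 0.759% of the 12775 genes with a mean of at least 1 CPM.

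The remaining *Saa* genes followed this order in part. *Saa3* was low, at 2.21, 4.24, 3.62, 2.22, 1.99 and 3.73 CPM in WT and at 3.91, 4.02, 2.71, 2.22, 2.62 and 3.08 CPM in LKO livers, which corresponds to 32 to 84 reads per library. It shared 5 of the 6 highest livers with *Saa1* and *Saa2*, WT replicate 3 taking the place of WT replicate 1. *Saa4* was at 540.4, 508, 333, 337, 461 and 705 CPM in WT and at 353, 559, 255, 310.0, 312 and 606 CPM in LKO livers. It also shared 5, with WT replicate 5 in the place of LKO replicate 1, and its highest liver was WT replicate 6.

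*Orm1*, *Orm2* and *Socs3* shared fewer of the 6 highest livers with *Saa1* and *Saa2* summed than the other members did. *Orm1* was the steadiest member, from 425 to 604 CPM in WT and from 432 to 520.3 CPM in LKO livers, with a pooled log2 SD of 0.14 against a median of 0.20 over genes with at least 1 CPM. Its highest liver was still WT replicate 2. *Orm2*, with 25 to 128 reads per library, ran from 1.73 CPM in WT replicate 1 to 6.00 CPM in WT replicate 2 and from 2.61 to 5.95 CPM in LKO livers. *Socs3* was at 20.8, 11.2, 4.45, 15.1, 6.91 and 17.8 CPM in WT replicates 1 to 6 and at 9.49, 10.1, 15.7, 13.6, 12.1 and 9.78 CPM in LKO replicates 1 to 6. Among the LKO livers the 3 with high *Saa1* were the 3 lowest in *Socs3*, whereas among the WT livers the highest *Socs3* values were in replicates 1 and 6, which were also high in *Saa1*. The gene of the feedback inhibitor thus shared only 2 of its 6 highest livers with *Saa1* and *Saa2* summed.

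Because the summed *Saa1* and *Saa2* values fell into 2 separate ranges, likeness to them within each range is given as a description over 6 livers. Pearson r of log2 CPM was 0.80 within the high and 0.70 within the low livers for *Lcn2*, 0.83 and -0.11 for *Hp*, 0.68 and 0.05 for *Hpx*, 0.92 and 0.07 for *Saa3*, and -0.21 and 0.10 for *Saa4*. For *Orm1* it was 0.83 and 0.26, for *Orm2* 0.72 and 0.43, and for *Socs3* -0.78 and -0.08. Within the low livers *Lcn2* had the highest r of these 8 members. All points share the library of the liver, and 6 livers give an imprecise r.

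Across all 12 livers, the 5 genes outside the 10 members with the highest Pearson r to *Saa1* and *Saa2* summed were *Fgl1* (0.95), *Fgb* (0.92), *Fga* (0.92), *Fam187b* (0.91) and *Bco1* (0.91), as a measure of likeness over genes with at least 1 CPM. *Fgl1* encodes the liver-secreted fibrinogen-like protein 1, *Fga* and *Fgb* encode chains of fibrinogen, the clot-forming acute phase protein, and *Bco1* encodes a carotene-cleaving oxygenase. *Fgl1* was at 268, 517, 157, 153, 176 and 421 CPM in WT and at 307, 323, 194, 172, 169 and 375 CPM in LKO livers. *Fgb* ranged from 5086 to 10095 CPM in WT and from 5159 to 8478 CPM in LKO livers. All 5 had the same 6 highest livers, but r within the high and low ranges was 0.69 and 0.20 for *Fgl1* and 0.40 and 0.48 for *Fgb*, lower than over all 12 livers. Their log2 fold changes between genotypes lay between -0.14 and -0.04, and none was called.

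**Figure D3:**
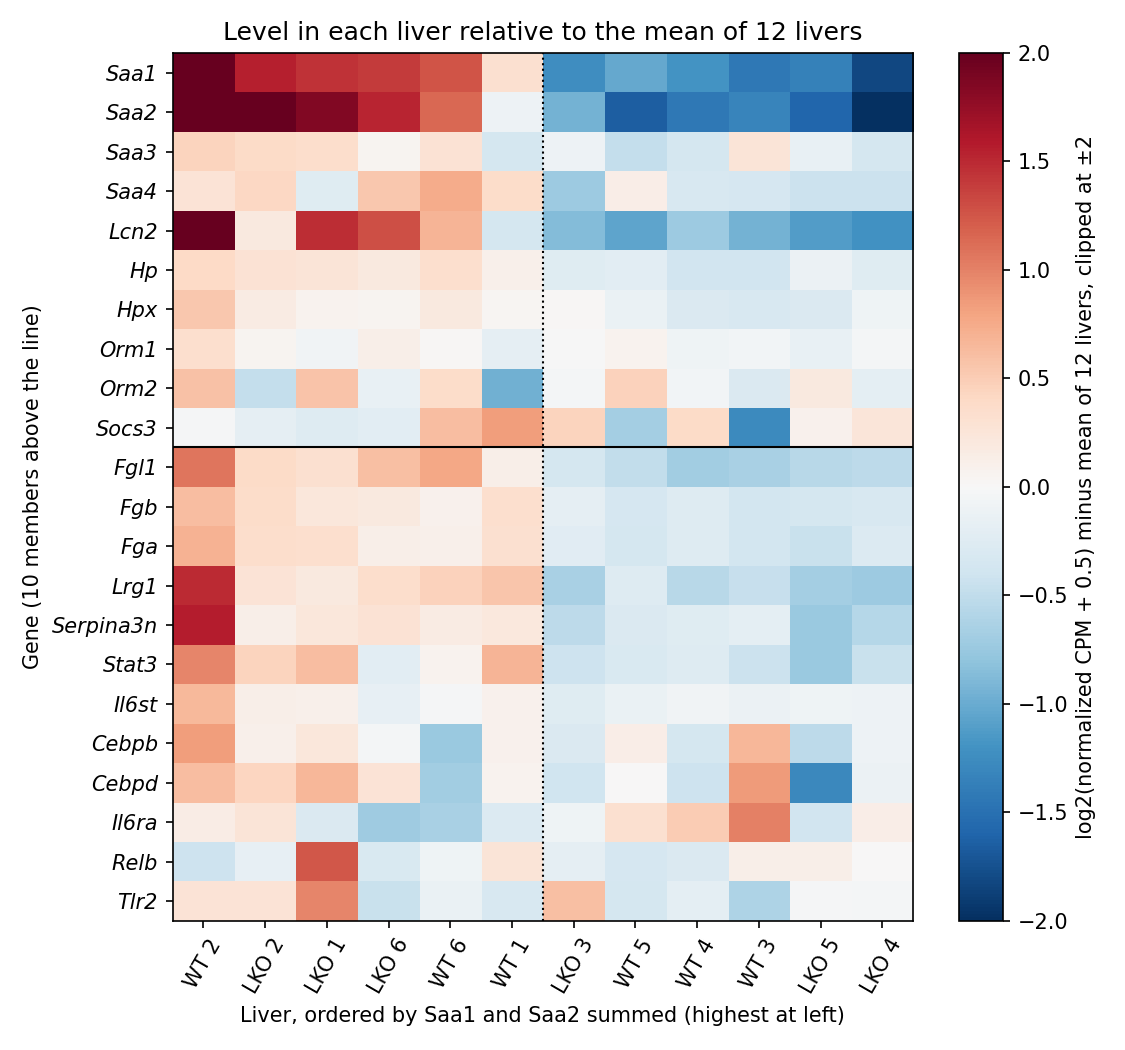
Each row is a gene and each column a liver, ordered from high to low *Saa1* and *Saa2* summed, and color gives log2(normalized CPM + 0.5) minus the gene's mean over 12 livers. The 6 livers left of the dotted line (WT replicates 1, 2 and 6, LKO replicates 1, 2 and 6) are those at 139.6 CPM or more in the sum. *Saa1*, *Saa2*, *Lcn2*, *Hp*, *Hpx* and the fibrinogen genes change color near that line, whereas *Orm2*, *Socs3*, *Il6ra* and *Relb* do not.

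Across 6 further lists of acute phase and related genes, edgeR called 0 of 134 tested genes, with 28 at an unadjusted p under 0.05 (11.7% of all genes), limma voom called 0 and DESeq2 called 8. Of 40 further positive acute phase genes, which inflammation induces, 36 were tested, 0 were called, 10 had an unadjusted p under 0.05 (4 higher and 6 lower in LKO livers), and their median log2 fold change was -0.11. Among the 36, 9 had the same 6 highest livers as *Saa1* and *Saa2* summed: *Fga*, *Fgb*, *Fgg*, *Fgl1*, *Lrg1*, *Mbl1*, *Mt1*, *Serpina10* and *Serpina3n*. Of the 12775 genes with a mean of at least 1 CPM, 0.759% had them. *Fga*, *Fgb* and *Fgl1* were already named above for their likeness to that sum. *Lrg1*, a secreted leucine-rich glycoprotein, was at 251 to 1036 CPM in WT and 221 to 468 CPM in LKO livers. *Serpina3n*, a serine protease inhibitor, was at 428 to 1552 CPM in WT and 311 to 640.2 CPM in LKO livers. The highest value of both was in WT replicate 2.

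WT replicate 2 stood out as a single high liver. It was the highest of 12 in 8 of the 10 members and in 23 of the 36 further positive acute phase genes, compared with 12.2% of all genes. *Socs3* and *Saa4* were the exceptions among the members. LKO replicate 1 was high in another set of genes, named here after their values were seen. *Cd14*, a lipopolysaccharide receptor, was at 10.9 CPM in this liver and at 0.762 to 2.89 CPM in the other 11, and *Il1rn*, the interleukin 1 receptor antagonist, was at 8.93 against 1.41 to 3.29 CPM. The chemokine *Ccl2* was at 2.37 CPM in it and at 0 to 0.335 CPM elsewhere. LKO replicate 1 was the highest liver in 15.4% and the lowest in 15.1% of all genes, the largest shares of any liver, so it also stood apart beyond inflammation genes. It was the highest of 12 in 0 of the 10 members.

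Among genes of this list with a mean of at least 1 CPM, *Hamp2* and *Vnn1* had the largest positive values, and neither passed the threshold. *Hamp2*, a relative of the hepcidin gene *Hamp* with which it can share reads, was at 4.56, 8.53, 39.1, 9.36, 6.91 and 4.44 CPM in WT and at 19.6, 23.1, 28.1, 38.5, 43.1 and 40.1 CPM in LKO livers. WT replicate 3 lay among the LKO livers, and the other WT livers lay below all of them. The log2 fold change was 1.40 (0.43 to 2.38, adjusted p = 0.224, edgeR), and it became 2.24 with an adjusted p of 0.000504 without WT replicate 3. *Vnn1*, a pantetheinase, was at 11.6 to 43.5 CPM in WT and 30.3 to 96.2 CPM in LKO livers (log2 fold change 1.12, 0.42 to 1.81, edgeR adjusted p = 0.168). Neither gene followed *Saa1* and *Saa2*: each shared 2 of their 6 highest livers.

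Negative acute phase genes, which encode plasma proteins and enzymes that fall during inflammation, were all tested (20 of 20) and 0 were called. Among them 7 had an unadjusted p under 0.05, all lower in LKO livers, as had 5.36% of all genes, and the median log2 fold change was -0.09. *Itih1*, a hyaluronan-binding inhibitor chain, was at 675 to 835 CPM in WT and 548 to 697 CPM in LKO livers (-0.26 ± 0.08, SE, edgeR adjusted p = 0.181). *Ttr*, the thyroxine and retinol carrier, differed by 0.09 ± 0.08 and *Serpina6*, the corticosteroid carrier, by 0.22 ± 0.16. *Cyp7a1*, the rate-limiting enzyme of bile acid synthesis, reached 366 CPM in WT and 182 CPM in LKO livers and was lowest in LKO replicate 1, at 12.4 CPM. That liver was the lowest of 12 in 10 of the 20 genes, against 15.1% of all genes. WT replicate 2 was the lowest in 0 of the 20, against 10.5% of all genes. WT replicates 1, 4 and 5 and LKO replicates 2, 3 and 4 were also the lowest in 0.

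Of the signalling genes upstream, 28 of 32 were tested and 0 were called. An unadjusted p under 0.05 was found for 2, against 11.7% of all genes, and the median log2 fold change was -0.04. *Il6* had 0 to 3 reads and *Tnf* 0 to 12 reads per library, so neither was tested, and the highest value of each was in LKO replicate 1. *Stat3*, the factor downstream of interleukin 6, was at 251, 309, 116, 132, 127 and 164 CPM in WT and at 241, 214, 118, 115, 93.4 and 136 CPM in LKO livers. It was the 1 tested gene of this list with the same 6 highest livers as *Saa1* and *Saa2* summed. Of all genes with a mean of at least 1 CPM, 0.759% had them. *Il6st*, the signalling chain of the receptor, was at 227 to 389 CPM in WT and 209.5 to 269 CPM in LKO livers, again with WT replicate 2 highest. *Il6ra*, the ligand-binding chain, ran from 73.4 to 233 CPM in WT and from 70.3 to 138 CPM in LKO livers and shared only 2 of its 6 highest livers with *Saa1* and *Saa2*. *Cebpb* and *Cebpd* shared 4 and 5. *Tyk2*, a JAK kinase, was at 30.3 to 35.9 CPM in WT and 23.0 to 29.1 CPM in LKO livers without overlap, and its log2 fold change of -0.31 ± 0.07 missed the threshold (edgeR adjusted p = 0.0639), while DESeq2 gave an adjusted p of 0.00307. *Relb* and *Tlr2* were highest in LKO replicate 1, at 3.49 and 4.42 CPM.

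Fast targets of STAT3 and NF-kB split evenly in direction, with 12 higher and 11 lower. All 23 were tested, 0 were called, and the median log2 fold change was 0.002. At an unadjusted p under 0.05 there were 5 (4 higher, 1 lower in LKO livers), against 11.7% of all genes (6.33% higher, 5.36% lower). *Egr1* was at 9.89 to 75.5 CPM in WT and 4.32 to 13.8 CPM in LKO livers (-1.59 ± 0.48, SE, edgeR adjusted p = 0.186), with WT replicates 1 and 4 far above the others. Among those with a mean of at least 1 CPM, *Myc* (1.09 ± 0.43) and *Cxcl10* (0.76 ± 0.40) had the largest positive values, and *Junb* differed by -0.32 ± 0.33. Below 1 CPM, *Ccl2* (1.64 ± 0.82), *Ier3* (1.54 ± 0.46, edgeR adjusted p = 0.182, the lowest of the list) and *Cxcl2* (1.42 ± 0.71) had larger ones. LKO replicate 1 weighed heavily in them. *Ccl2* had 51 reads in this liver, 0 to 5 in the other LKO livers and 1 to 5 in WT livers. *Cxcl2* had 29 reads in it, 3 to 9 in the other LKO livers and 0 to 8 in WT livers. For *Ier3* these values were 58, 7 to 30 and 4 to 10 reads. Of these 23 genes, 0 shared all 6 highest livers with *Saa1* and *Saa2* summed. That is near the 0.759% of the 12775 genes with a mean of at least 1 CPM.

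Glucocorticoids act together with cytokines on acute phase genes, and the mice had been fasted. Of 15 glucocorticoid and fasting genes tested, 0 were called, and 0 had an unadjusted p under 0.05, where 11.7% of all genes did. limma voom and DESeq2 called 0 of the 15 as well. *Cdkn1a*, a cell cycle inhibitor, was at 10.0 to 52.1 CPM in WT livers and at 98.0 CPM in LKO replicate 1 but 6.81 to 28.0 CPM in the other LKO livers. *Dusp1*, *Tsc22d3* and *Sgk1* had log2 fold changes of -0.65, -0.51 and 0.20.

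Genes that handle the ligands of *Hp*, *Hpx* and *Lcn2* were measured beside them. All 12 were tested and 0 were called, with a median log2 fold change of 0.18. An unadjusted p under 0.05 was found for 4 (2 higher and 2 lower), against 11.7% of all genes (6.33% higher and 5.36% lower). *Lrp1*, the hepatic receptor for heme bound to hemopexin, was at 1406 to 1840 CPM in WT and 1084 to 1414 CPM in LKO livers (-0.36 ± 0.08, SE, edgeR adjusted p = 0.0809, DESeq2 adjusted p = 0.00348). *Hmox1*, which degrades heme, was at 8.06 to 13.2 CPM in WT livers and reached 22.3 CPM in LKO replicate 1. *Alas1*, the first enzyme of heme synthesis, differed by 0.52 ± 0.37 and *Bdh2* by -0.35 ± 0.16.

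*Lcn2* is also a neutrophil gene and *Saa3* a macrophage gene, so markers of these cells were set beside them. The 8 neutrophil markers summed to 0.157 to 0.691 CPM in WT and 0.919 to 4.14 CPM in LKO livers. Every LKO liver lay above every WT liver, where 1.3% of all genes had groups that did not overlap. Only 2 of the 8 had enough reads to be tested, *S100a8* with 0 to 38 and *S100a9* with 1 to 47 reads per library. The rest had 0 to 13 reads per library, so the sums rest on few reads. *S100a8* was at 0 to 0.138 CPM in WT livers, with 3 of them at 0, and at 0.216 to 1.77 CPM in LKO livers (adjusted p = 0.0623, edgeR). WT replicate 2, highest in *Lcn2*, had 0.471 CPM of neutrophil markers, less than any LKO liver. LKO replicate 1, highest in these markers at 4.14 CPM, had 27.0 CPM of *Lcn2*, the most of any LKO liver. LKO replicate 3, second in these markers at 3.00 CPM, had 4.91 CPM of *Lcn2*. The 8 Kupffer cell markers were all higher in LKO livers, 7 at an unadjusted p under 0.05 (6.33% of all genes in this direction) and 0 called, and summed to 108 to 151 CPM in WT and 135 to 231 CPM in LKO livers. Their highest sum was in LKO replicate 3, which was among the low livers in *Saa1* and *Lcn2* and had 2.71 CPM of *Saa3*. The 4 monocyte markers were highest in LKO replicate 1, at 37.2 CPM against 16.1 to 33.5 CPM elsewhere. The 4 B cell markers summed to 0.647 to 1.21 CPM in WT and 1.26 to 2.19 CPM in LKO livers. These sums did not overlap either, and they also rest on few reads. Higher in LKO livers at an unadjusted p under 0.05 were 3 of the 4 (6.33% of all genes in this direction). No marker of T and NK cells, endothelial, stellate, cholangiocyte, adipocyte or erythroid cells was called either. Higher in LKO livers were also 4 of 4 tested monocyte, 4 of 4 B cell and 5 of 5 stellate markers. So were 4 of 5 endothelial and 4 of 5 T and NK cell markers and 2 of 4 each for cholangiocyte and erythroid cells. Of hepatocyte markers, 5 of 6 were lower. They summed to 98043 to 118914 CPM in WT and 89117 to 100059 CPM in LKO livers. The part of these cells in any value above was not tested.

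**Figure D4:**
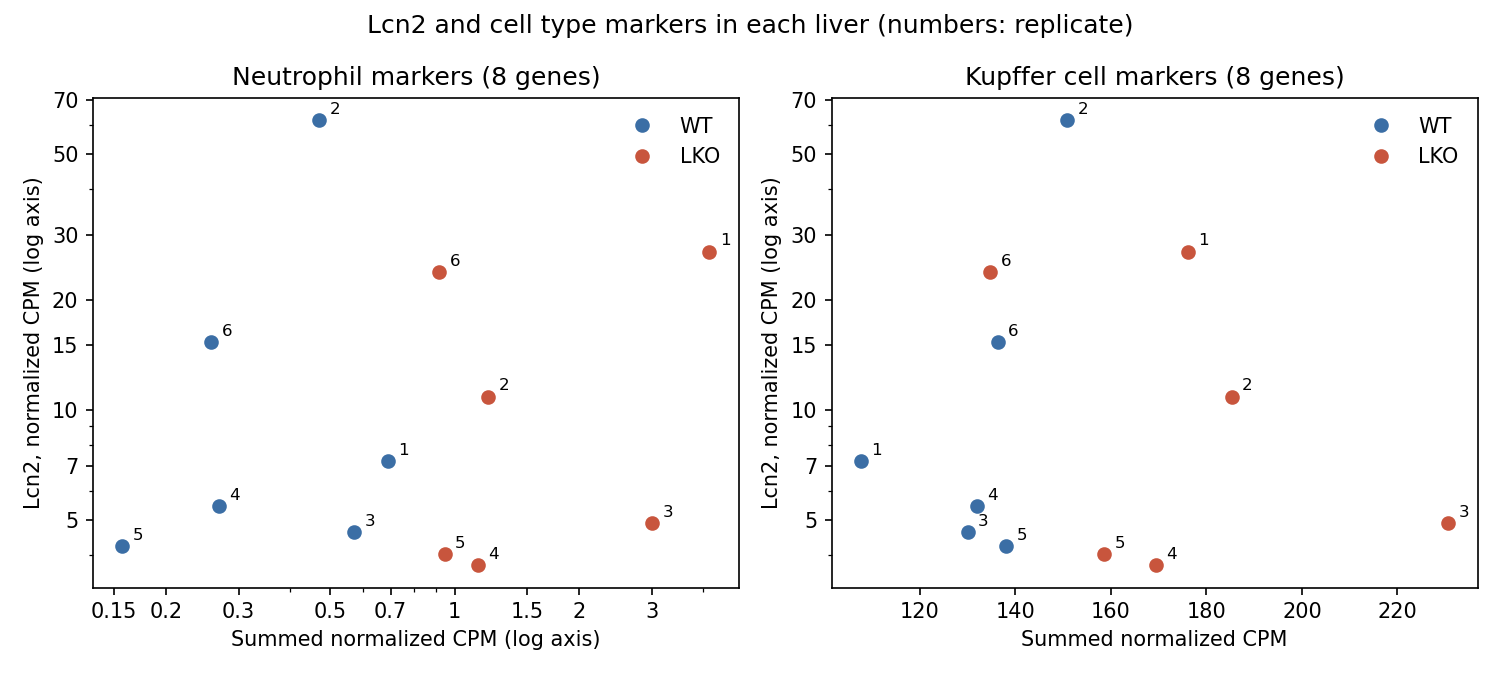
*Lcn2* in normalized CPM (y axis, log) is plotted for each liver against the summed CPM of 8 neutrophil markers (left, log axis) and of 8 Kupffer cell markers (right, linear axis), with WT in blue, LKO in red and the replicate number at each point. The liver with the most *Lcn2*, WT replicate 2 at 61.7 CPM, lies at 0.471 CPM of neutrophil markers, while LKO replicates 1 and 3 hold the most neutrophil markers at 27.0 and 4.91 CPM of *Lcn2*.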

How the data were processed

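RNA-seq libraries of 6 WT and 6 LKO mouse livers were analysed, 1 per mouse. The authors deposited 1 table of unnormalized read counts with Ensembl gene identifiers. Per the study's methods and the submitters' processing notes, read quality was assessed by FastQC 0.11.15 and Picard, trimming used Trimmomatic 0.36, alignment to GRCm38.p6 used HISAT2 2.1.0 and counting used HTSeq 0.6.1. The strand setting, overlap mode and read length are not given in the sources used here, so reads from near-identical genes may be split or lost.

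A gene entered the analysis if 6 or more livers had over 2 reads (17509 of 54232). After TMM scaling, LKO was set against WT in edgeR 4.0.16 (R 4.3.3; quasi-likelihood, genotype as the sole term), and p was adjusted across the 17509 genes by Benjamini-Hochberg, threshold 0.05. Each standard error was the fold change over the root of its F value, and log2 CPM used a prior count of 0.5. The study's own test, limma voom (limma 3.58.1), and DESeq2 1.42.0 were alternatives, beside other scalings, filters, a robust dispersion, a replicate block and each liver left out. Leaving out WT replicate 2 and LKO replicate 1 together was added after seeing the data. Tests were run on simulated data first. Levels per kb used the longest principal transcript of GENCODE M21. Transcripts and promoters were aligned with Biopython 1.88. The motif letters were chosen with these promoters in view, and promoters come from RefSeq.

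The members and gene lists were chosen with earlier results of these data known. Named genes were the 10 members, every listed gene called, the 2 largest rises and falls of each list with a mean of at least 1 CPM, *Il6ra*, *Il6st*, *Stat3*, *Cebpb* and *Cebpd*, and the 5 genes most like *Saa1* and *Saa2* summed. Any other named gene was picked with its values known. The running numbers in the library names cover all WT and then all LKO libraries, so an order of processing, if they give one, cannot be told apart from genotype.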

Additional observations from a re-analysis of the deposited data

Results flagged for a closer look

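In 11 of 90 groups of 6 livers (the named genes and 2 summed families, in each genotype), the highest or lowest liver was separated from the next by a larger fraction of the spread than Dixon's test allows at 95%. By chance about 1 in 20 groups would be. That rate holds only for normally distributed values and for genes chosen without regard to these values. The gaps were taken on CPM, where high values lie further apart than on log2 CPM, and normality was not tested. *Lrg1*, *Serpina3n* and *Dusp1* were named for large falls, *Relb*, *Cdkn1a* and *Hamp2* for large rises, and *Fam187b* for likeness to *Saa1* and *Saa2*. The flagged livers weigh in those values, so the rate does not apply to these genes. WT replicate 2 was the liver in 6 of the 11, each time as the highest. In WT livers these were *Lcn2* (gap over range 0.807, 61.7 CPM against 15.3 in the next liver), *Saa2* (0.640, 235 against 92.7 CPM), *Serpina3n* (0.846, 1552 against 602 CPM), *Lrg1* (0.632, 1036 against 540.2 CPM), *Il6st* (0.768, 389 against 265 CPM) and *Fam187b* (0.697, 12.3 against 7.74 CPM). These genes vary together across livers, so the 6 are not independent.

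LKO replicate 1 was the highest LKO liver for *Relb* (gap over range 0.821, 3.49 against 1.33 CPM), *Cdkn1a* (0.768, 98.0 against 28.0 CPM) and *Dusp1* (0.687, 57.5 against 40.8 CPM). WT replicate 1 was the highest WT liver for *Dusp1* (0.709, 148 against 62.4 CPM), and WT replicate 3 for *Hamp2* (0.858, 39.1 against 9.36 CPM). What set these livers apart was not tested.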

How the results depend on the processing

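The count of called members stayed at 0 of 10 under all 11 other settings and with each liver left out, and the lowest adjusted p of any member was 0.237 (*Saa4* with the replicate block). The members' median log2 fold change ran from -0.14 to 0.10 with 1 liver left out. Genes called in the lists were 0 in the main result, 8 with DESeq2 (*Blvrb*, *C3*, *C4bp*, *Ftl1*, *Itih1*, *Lrp1*, *Pglyrp2*, *Tyk2*), 1 with the replicate block (*Itih3*), and 0 to 2 with 1 liver left out (*Hamp2* and *Lrp1* without WT replicate 3, *Tyk2* without LKO replicate 1). Over all genes, 75 were called, and 351 with DESeq2, 114 with no low-count filter, 47 without WT replicate 2 and LKO replicate 1, and 38 to 132 with 1 liver left out, lowest without WT replicate 5 and highest without WT replicate 3.

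Some directions turned, each without a call. With WT replicate 2 and LKO replicate 1 both left out, log2 fold changes were 0.36 for *Lcn2*, 0.068 for *Hpx*, 0.042 for *Orm1*, 0.040 for the summed *Orm* genes, 0.070 for *Fgl1*, 0.050 for *Fgb*, 0.026 for *Fga*, 0.086 for *Fam187b*, 0.048 for *Bco1*, -0.053 for *Relb* and -0.55 for *Cdkn1a*. limma voom gave -0.0030 for *Saa1*, 0.078 for *Socs3* and -0.19 for *Cdkn1a*. With 1 liver left out, ranges across 0 were -0.14 to 0.15 for *Bco1*, -0.90 to 0.48 for *Cdkn1a*, -0.32 to 0.061 for *Cebpd*, -0.14 to 0.11 for *Fam187b*, -0.14 to 0.096 for *Fga*, -0.13 to 0.093 for *Fgb*, -0.27 to 0.13 for *Fgl1*, -0.039 to 0.12 for *Hp*, -0.11 to 0.081 for *Hpx*, -0.81 to 0.75 for *Lcn2*, -0.075 to 0.029 for *Orm1*, -0.077 to 0.029 for the summed *Orm* genes, -0.25 to 0.038 for *Orm2*, -0.24 to 0.67 for *Saa1*, -0.19 to 0.86 for *Saa1* and *Saa2* summed, -0.10 to 1.21 for *Saa2*, -0.058 to 0.17 for *Saa3* and -0.28 to 0.094 for *Socs3*. Between-genotype directions of these genes are therefore not settled by 6 livers a group, and differences inside the intervals given are not excluded.

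The replicate numbers were not taken as pairs, since the labels tie them to nothing and not every pair was alike over all genes: deviations from the group means correlated at -0.18 for number 3 and at 0.10 to 0.29 for the others, and 1 of 6 WT and 3 of 6 LKO livers correlated best with their own number. With the number as a block, 97 genes were called, the block turned *Socs3* to 0.00052 and *Cdkn1a* to -0.19, and the SE of *Saa1* and *Saa2* summed was 0.22 in place of 0.74 around a log2 fold change of 0.09. For *Saa1* it was 0.20 in place of 0.71 and for *Saa2* 0.28 in place of 0.81. With these SEs a 2-fold difference would lie outside the interval for *Saa1*, for *Saa2* and for the sum, so the width of those intervals depends on this choice.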
